A study of Homo sapiens with 4 samples.

Results

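Interferon-stimulated genes are the genes that cells transcribe in response to interferon. Type I interferons bind the receptor IFNAR1/IFNAR2, the kinases JAK1 and TYK2 are activated, and a complex that contains STAT2 and IRF9 binds the interferon-stimulated response element (ISRE) in the promoters of its targets. The products sense foreign nucleic acid, degrade or bind viral RNA, block viral entry and modify proteins, and some of them are also kept on at a steady level in cancer cell lines without added interferon. Members were chosen by symbol, as 46 genes of this programme in 11 role groups. Of these, 44 had a row among the 26336 genes of the deposited table, and all 44 passed the filter for testing, a mean value of at least 1. CMPK2 and XAF1 are not analysed here.

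The cells were MDA-MB-231, an established human line from a triple-negative breast cancer, labelled wild type (WT) in every library. The groups were a compound for 24 h and the vehicle DMSO for 24 h, with 2 libraries each. The compound is known by a code name, spelled out in the plots, and the series title calls it an inhibitor of ALKBH5, the enzyme that removes N6-methyladenosine from RNA. The question is which polyadenylated transcripts the compound raises or lowers. Nothing in the labels mentions added interferon. Nothing says either that the 2 libraries of a group are separate cultures, so a p-value here reflects library-to-library spread that may be purely technical.

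Values are read counts that the authors scaled per library. If the smallest value above 0 is 1 read, the compound libraries held 16139766 and 16497283 reads and the DMSO libraries 16042345 and 15161460. By markers, the 6 genes listed for this mesenchymal-like line, among them VIM and AXL, summed to 50229 and 49384 in the compound libraries and to 49057 and 46798 with DMSO. Immune-cell markers, 4 of 7 with a row, summed to 13.9 and 13.5 with the compound and to 8.97 and 10.3 with DMSO. The sums over the 4 libraries ran from 450.1 to 536 for luminal epithelium (5 of 7 with a row), from 151 to 197 for fibroblasts (5 of 6) and from 74.5 to 109.9 for endothelium (3 of 3). ALKBH5 itself averaged 1261 ± 27.4 with the compound and 1438 ± 6.09 with DMSO (SD, n = 2 each). Its log2 fold change of -0.19 (SE 0.07) had an adjusted p of 0.167 by limma. In bulk RNA, fewer cells expressing a gene and less RNA per cell cannot be told apart.

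Promoter windows of 250 bases before to 50 bases after a gene's start were searched for the ISRE core (GAAA, any 2 bases, GAAA) on both strands (RefSeq, GRCh38.p14). A window was found for 35 of the 44 genes. The core occurred in 25 of these 35 genes (71.4%), against 1195 of 27305 genes with a window (4.38%). The interferon-gamma-activated site, TTCNNNGAA, occurred in 10 of the 35 (28.6%), against 9.38% of all genes. TTCNNNGAA reads the same on both strands and can overlap the ISRE core. Such a match is a description of letters and not a measured binding site. The 4 windows printed here are those of IFI16, the one member that passed the test of the compound, and of the 3 most abundant members whose window holds the core, with the core in capitals. They lie at chr1:159008741-159009040 on the + strand (IFI16) and, on the - strand, at chr17:78979874-78980173 (LGALS3BP), chr2:37156931-37157230 (EIF2AK2) and chr11:320811-321110 (IFITM3).
IFI16: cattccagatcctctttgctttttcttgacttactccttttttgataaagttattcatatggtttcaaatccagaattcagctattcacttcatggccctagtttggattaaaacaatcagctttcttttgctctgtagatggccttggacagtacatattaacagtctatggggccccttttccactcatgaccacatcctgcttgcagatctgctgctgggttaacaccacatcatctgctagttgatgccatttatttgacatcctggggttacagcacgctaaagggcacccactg
LGALS3BP: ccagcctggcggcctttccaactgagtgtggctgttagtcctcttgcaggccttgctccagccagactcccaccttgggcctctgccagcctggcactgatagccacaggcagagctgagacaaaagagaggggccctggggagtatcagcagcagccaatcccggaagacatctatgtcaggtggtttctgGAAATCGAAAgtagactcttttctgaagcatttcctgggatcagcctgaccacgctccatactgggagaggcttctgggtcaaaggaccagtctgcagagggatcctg
EIF2AK2: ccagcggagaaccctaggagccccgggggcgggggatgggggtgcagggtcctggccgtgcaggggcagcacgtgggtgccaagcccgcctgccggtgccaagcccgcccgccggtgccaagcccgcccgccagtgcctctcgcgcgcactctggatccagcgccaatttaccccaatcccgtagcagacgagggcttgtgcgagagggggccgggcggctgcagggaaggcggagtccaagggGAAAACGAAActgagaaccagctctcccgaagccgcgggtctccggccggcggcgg
IFITM3: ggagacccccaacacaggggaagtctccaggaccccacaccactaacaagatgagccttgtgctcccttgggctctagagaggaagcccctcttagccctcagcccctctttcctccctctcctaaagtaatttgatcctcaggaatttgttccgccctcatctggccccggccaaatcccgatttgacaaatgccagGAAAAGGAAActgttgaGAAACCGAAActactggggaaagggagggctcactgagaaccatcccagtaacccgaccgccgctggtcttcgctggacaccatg
The core starts 58 bases before the LGALS3BP start and 6 bases before that of EIF2AK2. IFITM3 holds a pair of cores close together, which start 52 and 35 bases before its start. Neither of the windows of IFI16 held a core. Both lie downstream of the start of the tested gene at chr1:158999968, where no window was searched. The 25 genes with a core had a median log2 fold change (compound over DMSO) of 0.08, and 17 were above 0. The 10 genes with a window and no core had a median of 0.09, and 7 were above 0.

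The programme was expressed in both groups over a wide range of levels. Of the 44 genes, 11 had a mean value of at least 1000, 25 lay between 100 and 1000, 5 between 10 and 100, and 3 under 10. Per kb of gene length, LGALS3BP was highest with a mean of 1835 over the 4 libraries, followed by IFITM3 at 1193, ISG15 at 696, ADAR at 612 and IFI44 at 421. At the other end stood TRIM22 at 0.541, MX2 at 1.94, IFITM1 at 3.65, BST2 at 3.81, OAS2 at 3.97 and IFI27 at 4.92. BST2, IFITM1 and TRIM22 rested on a few reads per library.

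**Figure D1:**
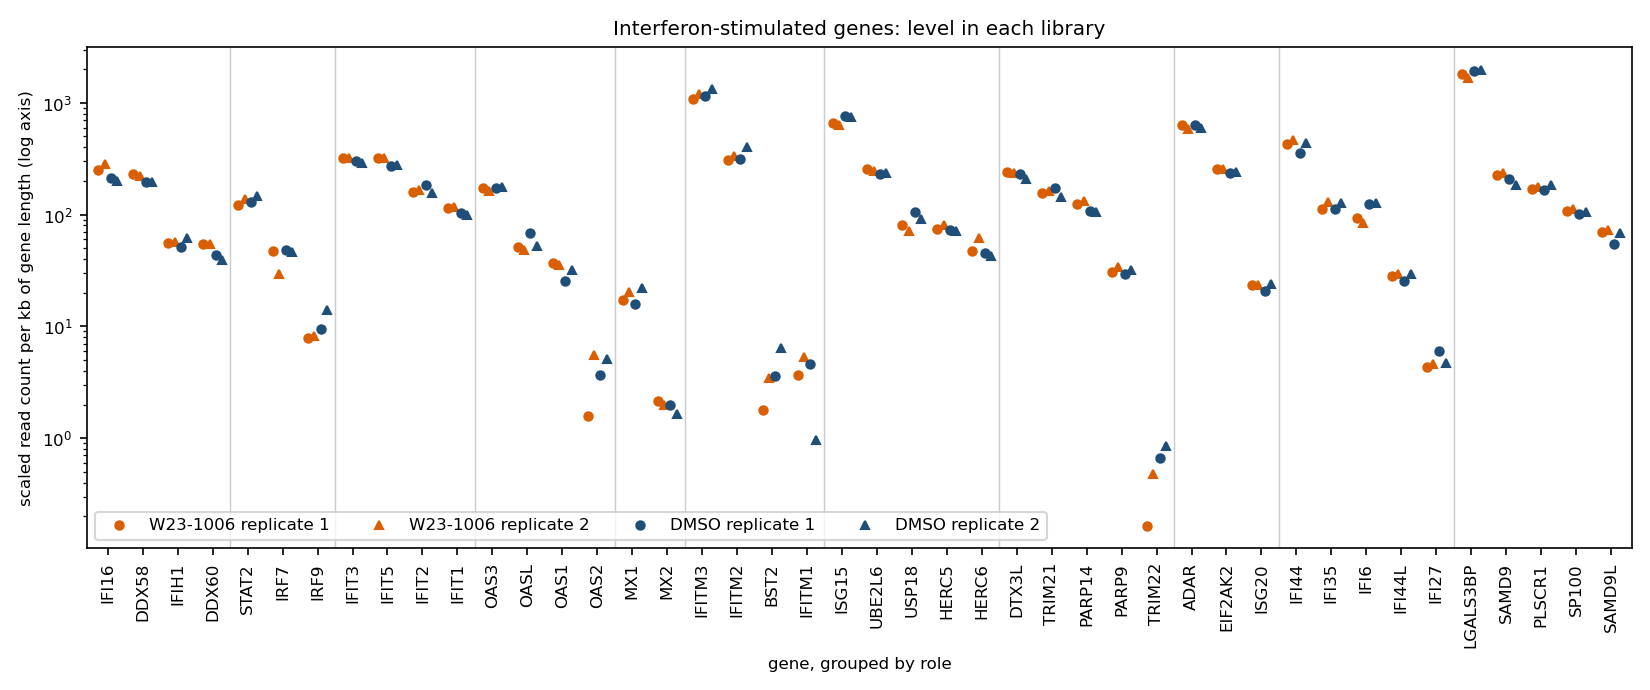
Scaled read count per kb of gene length (log axis) of the 44 interferon-stimulated genes in each of the 4 libraries, with genes in their role groups and compound points left of DMSO points. Levels run from TRIM22 with a mean of 0.541 to LGALS3BP with a mean of 1835, and for most genes the 4 points lie close together.

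One of the 44 interferon-stimulated genes, IFI16, changed with the compound, and it was higher. That is 2.27% of the members, against 2.15% of the 22486 genes tested (484 called at an adjusted p under 0.05 by limma, with Benjamini-Hochberg adjustment over all genes tested); 0.694% of all genes were called higher and 1.46% lower. The share of members called was thus close to that of all genes tested at any level. Of the 484 genes called, 481 were among the 10602 with a mean value of at least 100. At that level stood 36 members, with 1 called. The median log2 fold change of the 44 genes was 0.04, with a range of -0.99 to 0.74, against a median of -0.01 over all genes tested. Groups did not overlap for 27 of the 44, with 17 higher and 10 lower, against 47.1% of all genes (22.1% higher and 25% lower). The log2 fold change was above 0 for 26 of the 44, against 48.7% of all genes, and after a correction of each library for transcript GC content for 28, against 50.8%. The authors' deposited table called the same single member at an adjusted p under 0.05, against 2.42% of its 26336 genes. Many members, such as DDX60, HERC6, USP18, IFI6 and OAS1, had the largest possible adjusted p there whatever their p. In the authors' test DDX60 had a p of 0.0346, and IFIT5 had a p of 0.0343 with an adjusted p of 0.167. For members at the largest value the lack of a call there says little.

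Among the sensors of nucleic acid, IFI16, which binds DNA in the nucleus and cytoplasm, had values of 1317 and 1493 in the compound libraries, against 1118 and 1047 in the DMSO libraries. Both compound libraries lay above both DMSO libraries, with means of 1405 ± 124 with the compound and 1083 ± 50 with DMSO (SD, n = 2 each). IFI16 (ENSG00000163565, chr1:158999968-159055155, + strand, GRCh38) thus rose by a log2 fold change of 0.37 (SE 0.08, adjusted p = 0.0307 by limma). The authors' deposited table gave 0.38 for it, with an adjusted p of 0.0107. Once each library was corrected for transcript GC content, the log2 fold change was 0.23 (SE 0.07) and the adjusted p 0.422. With any 1 of the 4 libraries left out, the log2 fold change lay between 0.28 and 0.46. No gene of the whole table was called by limma in those fits, so the adjusted p of IFI16 there, 0.36 to 0.543, says nothing about this gene in particular.

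The other sensors did not pass. DDX60, a helicase linked to signalling by DDX58, had 367 and 366 with the compound, against 294 and 267 with DMSO, a log2 fold change of 0.39 (SE 0.11, adjusted p = 0.0899 by limma). DDX58, also called RIG-I, which detects viral RNA ends, had 996 and 958 with the compound, against 860.0 and 853 with DMSO. Its log2 fold change was 0.19 (SE 0.08, adjusted p = 0.226 by limma). Both genes had groups that did not overlap, as IFI16 had. IFIH1, or MDA5, the sensor of long double-stranded RNA, differed by a log2 of 0.01, and its DMSO values lay on either side of those with the compound.

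The 3 transcription factors of the programme all had log2 fold changes under 0, and none passed. STAT2, a signal transducer of the interferon receptor, had 747 and 841 with the compound, against 792 and 903 with DMSO (log2 fold change -0.09, SE 0.09). IRF9, the DNA-binding subunit of the complex with STAT2, had 29.8 and 30.9 with the compound, against 35.9 and 53.7 with DMSO, a log2 fold change of -0.52 (SE 0.33, adjusted p = 0.472 by limma). The IRF9 groups did not overlap, but the DMSO libraries stood far apart, and 48.4% of its exonic bases are shared with another annotated gene on its strand. IRF7, which drives interferon transcription, had 123 and 77.1 with the compound, against 126 and 121 with DMSO. The second compound library was low and the first lay among the DMSO values. IRF7 has a GC content of 66.8%, and its log2 fold change was -0.33 (SE 0.22) as deposited and 0.02 after the GC correction.

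The IFIT proteins bind viral RNA, and the group had a median log2 fold change of 0.16, with 3 of 4 above 0 and none called. IFIT5 had 1291 and 1277 with the compound, against 1095 and 1125 with DMSO, a log2 fold change of 0.21 (SE 0.07, adjusted p = 0.137 by limma). IFIT1, which recognises RNA caps that lack ribose methylation, had 528 and 537 with the compound, against 480.3 and 453 with DMSO (0.19, SE 0.09). Neither pair of groups overlapped, and after the GC correction the log2 fold changes were 0.06 for IFIT5 and 0.10 for IFIT1. IFIT3 stood at 0.13 and IFIT2 at -0.07 on the log2 scale.

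The OAS enzymes make the 2-5A messenger that activates the nuclease RNase L, and none of the 4 passed. OAS1 had 181 and 176 with the compound, against 127 and 157 with DMSO, a log2 fold change of 0.34 (SE 0.16, adjusted p = 0.311 by limma), which was also 0.34 after the GC correction. OASL, a relative without that enzymatic activity, had 179 and 171 with the compound, against 241 and 186 with DMSO (-0.28, SE 0.16). These values put OAS1 above and OASL below DMSO in both compound libraries. Without the first DMSO library the log2 fold change was 0.19 for OAS1 and -0.09 for OASL, and without the second it was -0.46 for OASL. OAS3, the most abundant of the family, had 1427 and 1352 with the compound, against 1442 and 1444 with DMSO (-0.06, SE 0.07). OAS2 had 9.94 and 34.7 with the compound, against 22.9 and 32.0 with DMSO, so its libraries of 1 group differed more than its groups.

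Of the Mx GTPases, which trap viral nucleocapsids, MX1 had 149 and 176 with the compound, against 136 and 192 with DMSO, a log2 fold change of 0.01 (SE 0.18). MX2 had 27.8 and 26.0 with the compound, against 25.9 and 21.7 with DMSO (0.18, SE 0.38). For MX1, a classical readout of interferon action, the DMSO libraries enclosed the compound libraries.

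IFITM3, which stops viruses from fusing in endosomes, had 1471 and 1633 with the compound, against 1554 and 1775 with DMSO, a log2 fold change of -0.10 (SE 0.08). IFITM2 had 476 and 517 with the compound, against 485 and 618 with DMSO (-0.14, SE 0.11). The groups overlapped for both. IFITM2 and IFITM1 share exonic bases (22.7% and 32.5% of each), and 21.3% of the exonic bases of IFITM3 lie opposite another gene, so reads may have been split or added. IFITM1 had values of 3.97 and 5.79 with the compound, against 4.98 and 1.03 with DMSO. BST2, the tetherin that holds budding virus at the cell surface, had 1.99 and 3.86 with the compound, against 3.99 and 7.22 with DMSO. At such counts a difference was not detectable.

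ISG15 is a ubiquitin-like modifier that is joined to proteins by UBE2L6 and HERC5 and removed by USP18. ISG15 had 615 and 596 with the compound, against 713 and 698 with DMSO, a log2 fold change of -0.22 (SE 0.09, adjusted p = 0.201 by limma). USP18, which also inhibits signalling at IFNAR2, had 173 and 153 with the compound, against 225 and 196 with DMSO (-0.37, SE 0.15, adjusted p = 0.226 by limma). Both were below DMSO in each compound library, and neither passed. After the GC correction ISG15, with a GC content of 63.4%, stood at 0.05 and USP18, at 51.6%, at -0.31. HERC6, whose library values were looked up after its fold change was seen, had 274 and 361 with the compound, against 261 and 245 with DMSO (0.31, SE 0.14). The second compound library was the high one, and the log2 fold change was 0.12 without it and 0.51 without the first. HERC5 had a log2 fold change of 0.11 and UBE2L6 of 0.10, and the value of UBE2L6 after the GC correction was 0.25 (adjusted p = 0.581 by limma).

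PARP14, an ADP-ribosyltransferase, came nearest to the threshold after IFI16. It had 1307 and 1391 with the compound, against 1127 and 1102 with DMSO, a log2 fold change of 0.27 (SE 0.07, adjusted p = 0.0611 by limma) and of 0.18 after the GC correction. DTX3L, the ubiquitin ligase that pairs with PARP9, had 1423 and 1385 with the compound, against 1355 and 1216 with DMSO (0.13, SE 0.07). For both genes each compound library was above each DMSO library. The value of DTX3L was 0.21 without the first DMSO library and 0.05 without the second. PARP9 itself differed by 0.09 on the log2 scale, TRIM21, the cytosolic antibody receptor, by 0.01, and TRIM22 by -0.99 (SE 0.83) on a few reads.

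Of the RNA-acting enzymes, ADAR and EIF2AK2 each had a mean value above 1000. ADAR, which edits adenosine to inosine in double-stranded RNA, had 6189 and 5638 with the compound, against 6151 and 5728 with DMSO, a log2 fold change of -0.01 (SE 0.06). EIF2AK2, or PKR, the kinase that halts translation on sensing double-stranded RNA, had 2755 and 2740.5 with the compound, against 2553 and 2578 with DMSO (0.10, SE 0.06, adjusted p = 0.427 by limma). ADAR groups overlapped and those of EIF2AK2 did not, and EIF2AK2 was at -0.04 after the GC correction. The exonuclease ISG20 had 173 and 172 with the compound, against 153 and 176 with DMSO (0.07, SE 0.15).

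Of the IFI genes, IFI6, a small membrane protein induced by type I interferon, had 81.5 and 72.3 with the compound, against 107 and 110.4 with DMSO, a log2 fold change of -0.49 (SE 0.20, adjusted p = 0.226 by limma). IFI44 had 870.4 and 951 with the compound, against 723 and 884 with DMSO (0.19, SE 0.10). IFI6 was below DMSO in both compound libraries, whereas the IFI44 groups overlapped. IFI44L differed by 0.08, IFI35 by 0.02 and IFI27 by -0.24 (SE 0.42) on the log2 scale.

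LGALS3BP, a secreted glycoprotein that binds galectins, had 6447 and 5924 with the compound, against 6856 and 7080.2 with DMSO, a log2 fold change of -0.17 (SE 0.06, adjusted p = 0.117 by limma). SAMD9, which restricts poxviruses, had 1565 and 1604 with the compound, against 1436 and 1264 with DMSO (0.23, SE 0.08, adjusted p = 0.118 by limma). The groups of each did not overlap, in opposite directions. LGALS3BP stood at -0.11 without the second compound library and SAMD9 at 0.14 without the second DMSO library. LGALS3BP has a GC content of 60.5% and SAMD9 of 36.0%, and after the GC correction they stood at 0.04 and 0.07. SAMD9L, its neighbour on chromosome 7, differed by 0.21, SP100, a nuclear body protein, by 0.08, and the scramblase PLSCR1 by -0.01.

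**Figure D2:**
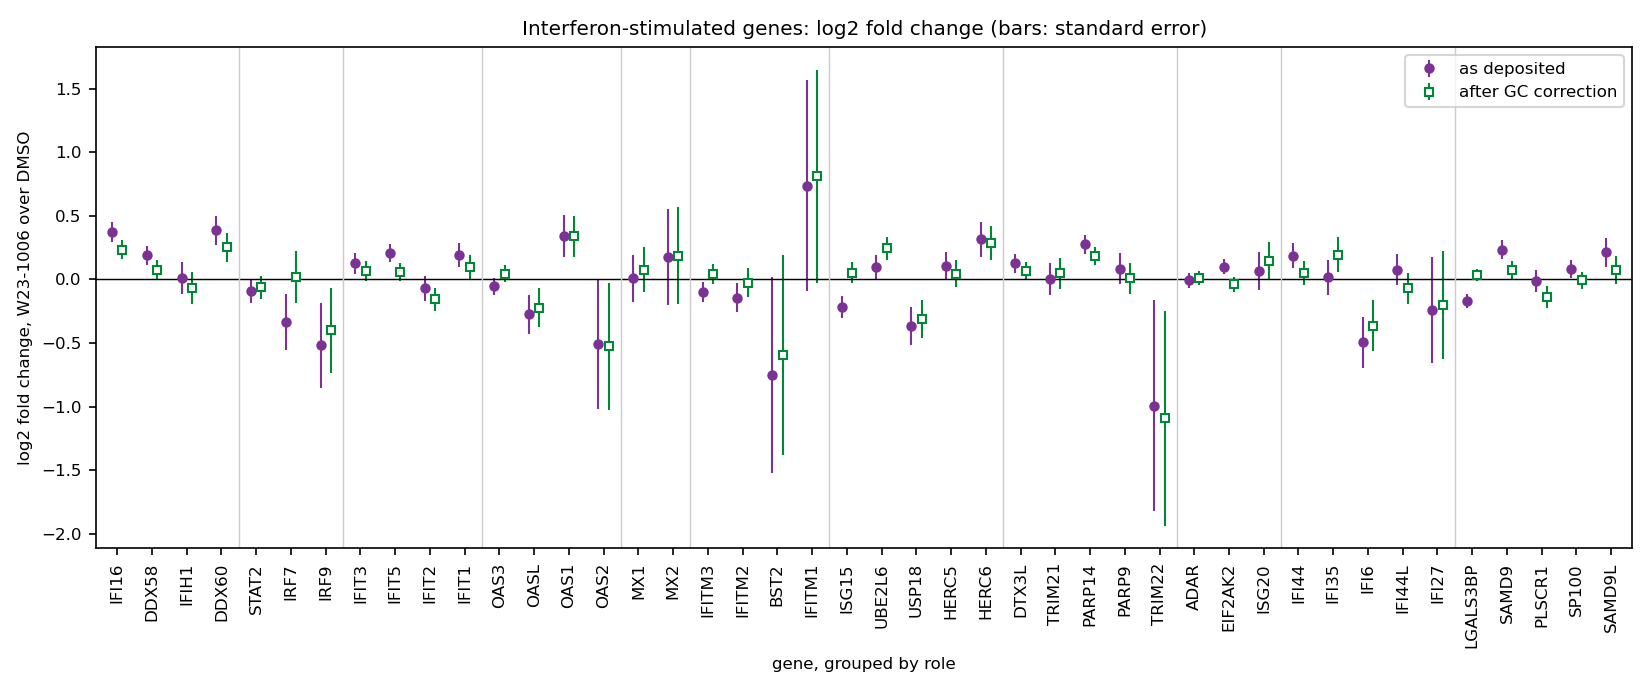
Log2 fold change, compound over DMSO, of each of the 44 genes as deposited (filled circles) and after the GC correction (open squares), with bars for the standard error from limma (n = 2 each). IFI16, at 0.37 and 0.23, was called only as deposited, and the widest bars belong to BST2, IFITM1 and TRIM22, which rested on a few reads.

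The direction of a member went with the base composition of its transcript, as it did for genes in general. The 20 members with a GC content under 45%, such as IFI16, DDX60 and SAMD9, had a median log2 fold change of 0.13, and 17 of the 20 were above 0. All 8581 genes tested in that range had a median of 0.12, and 5895 of the 8581 were above 0. The 19 members over 50%, such as LGALS3BP, ISG15 and IRF7, had a median of -0.14, with 6 of the 19 above 0. All 9633 genes tested over 50% had a median of -0.15, with 2781 of the 9633 above 0. In these ranges the medians of members and of all genes lay close together. Between them, at 45% to 50%, stood 5 members, ADAR, HERC6, OAS1, OAS2 and MX2, with a median of 0.18 (0.19 after the GC correction), against 0.02 (0.00) for the 4262 genes tested there. Library by library, the members under 45% had median deviations from the gene mean of 0.06 and 0.09 (log2) with the compound, against -0.08 and -0.07 with DMSO. For those over 50% the medians were -0.10 and -0.02 with the compound, against 0.03 and 0.09 with DMSO.

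Across the 36 members with a mean value of at least 100, Spearman's rho between GC content and log2 fold change was -0.68, against -0.73 across 10600 genes at that level. These are descriptions across genes of the same 4 libraries, and genes are not independent replicates. After a smooth curve on GC content was taken out of each library, the rho over the 36 members was -0.04. The members under 45% then had a median log2 fold change of 0.06 and those over 50% of 0.04. For all genes tested in these ranges the corrected medians were 0.0002 and 0.006. No member was called by limma after this correction, against 0.0934% of all genes (0.0623% higher and 0.0311% lower), and 4 had an unadjusted p under 0.05, against 11 before it (7.25% and 16.7% of all genes). GC content and treatment went together in these libraries, and the part of either in the members' values was not tested.

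**Figure D3:**
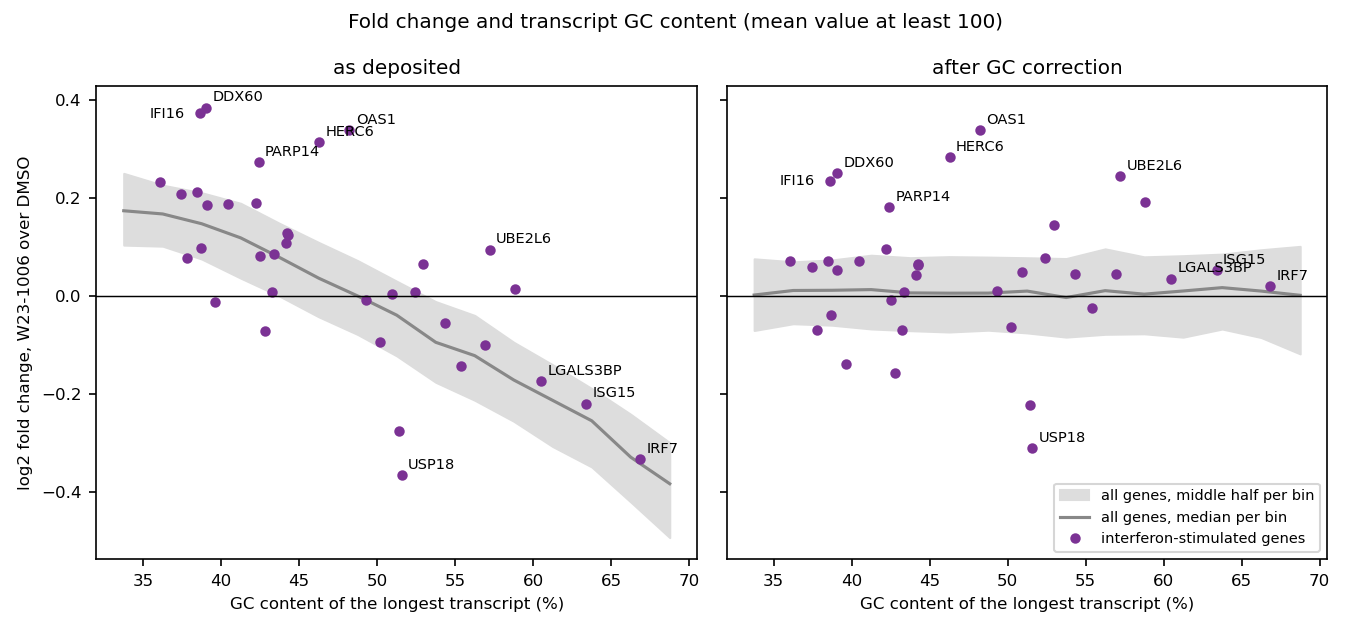
Log2 fold change, compound over DMSO, against GC content of the transcript, as deposited and after the GC correction. Shown are the 36 interferon-stimulated genes whose mean reached 100, and all genes of that level in GC bins (median and quartiles). Members of lower value are not shown. As deposited, the members shown follow the slope of the binned genes, and after the correction the slope is gone. With the members of lower value included, the medians as deposited were 0.13 under 45% GC and -0.14 over 50%.

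The rest of the interferon pathway was read from a list of receptors, kinases, sensors, IRF factors, inhibitors and other induced genes, of which 82 were tested. Of these, 5 passed, 1 higher and 4 lower, which is 6.10% against 2.15% of all genes, and none of the 5 passed after the GC correction. The 2.15% covers genes of every level, whereas 481 of the 484 calls fell among the 10602 genes whose mean reached 100. All 5 stood at that level, where the share called was higher than 2.15%. The list was not compared with genes of like level, and it was chosen with earlier results of these data known. At an unadjusted p under 0.05 by limma there were 21 as deposited, 25.6% against 16.7% of all genes. After the correction there were 3, 3.66% against 7.25% of all genes. The 4 that fell have a GC content over 50%, and the 1 that rose has one under 45%. The median log2 fold change of the 82 was -0.03. The 11 interferon ligands of the list are not analysed here.

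At the head of the pathway, IFNAR1 had 1818 and 1942 with the compound, against 1653 and 1529 with DMSO, a log2 fold change of 0.24 (SE 0.07, adjusted p = 0.0847 by limma). JAK1, which is bound to IFNAR2, had 2855 and 2648 with the compound, against 2458 and 2496 with DMSO (0.15, SE 0.06). TYK2, which is bound to IFNAR1, had 1774 and 1657 with the compound, against 2089.8 and 2025 with DMSO (-0.26, SE 0.07, adjusted p = 0.0535 by limma). None of the 3 passed, although no groups overlapped, and TYK2, with a GC content of 61.3%, stood at -0.04 after the GC correction. IFNAR2 had 26.8 and 20.2 with the compound, against 13.0 and 18.6 with DMSO, and 83.2% of its exonic bases are shared with other annotated genes.

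Of the inhibitors, PTPN11, the phosphatase SHP2, rose: it had 7221 and 7451 with the compound, against 6463 and 6162 with DMSO (log2 fold change 0.22, SE 0.05, adjusted p = 0.0455 by limma). TRIM28, a corepressor that silences repeat elements, fell, with 10721 and 9594 with the compound, against 12779.9 and 12118 with DMSO (-0.30, SE 0.06, adjusted p = 0.0235 by limma). After the GC correction PTPN11 stood at 0.12 and TRIM28 at -0.02. SOCS3, which blocks JAK kinases, had 552 and 591 with the compound, against 701 and 699.7 with DMSO, and did not pass (-0.29, SE 0.09, adjusted p = 0.0942 by limma).

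Among the induced genes outside the 44, MOV10, an RNA helicase that restricts retroelements, fell, with 1005 and 1150.4 with the compound, against 1400.2 and 1531 with DMSO (-0.45, SE 0.08, adjusted p = 0.0227 by limma). RBCK1, a subunit of the linear ubiquitin ligase complex, fell, with 2085 and 1874 with the compound, against 2389.8 and 2481 with DMSO (-0.30, SE 0.07, adjusted p = 0.0372 by limma). PARP10 also fell, with 468 and 484 with the compound, against 618 and 618 with DMSO (-0.38, SE 0.09, adjusted p = 0.0467 by limma). These 3 genes differed in what the GC correction left: the log2 fold change was -0.31 for MOV10 (adjusted p = 0.307 by limma), 0.00 for RBCK1 and -0.02 for PARP10. With any 1 library left out, the log2 fold change lay between -0.54 and -0.35 for MOV10, -0.38 and -0.22 for TRIM28, -0.38 and -0.22 for RBCK1, -0.40 and -0.35 for PARP10, and 0.18 and 0.25 for PTPN11.

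IRF3, LY6E and SLFN5 did not pass either. IRF3, the factor activated by the sensors, had 829.6 and 822 with the compound, against 988 and 1036 with DMSO (-0.29, SE 0.08, adjusted p = 0.0615 by limma). LY6E had 1508 and 1445 with the compound, against 1721 and 1722 with DMSO (-0.22, SE 0.07). SLFN5 had 303 and 308 with the compound, against 256 and 221 with DMSO (0.36, SE 0.13). After the GC correction IRF3 stood at -0.11, LY6E at 0.07 and SLFN5 at 0.23.

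**Figure D4:**
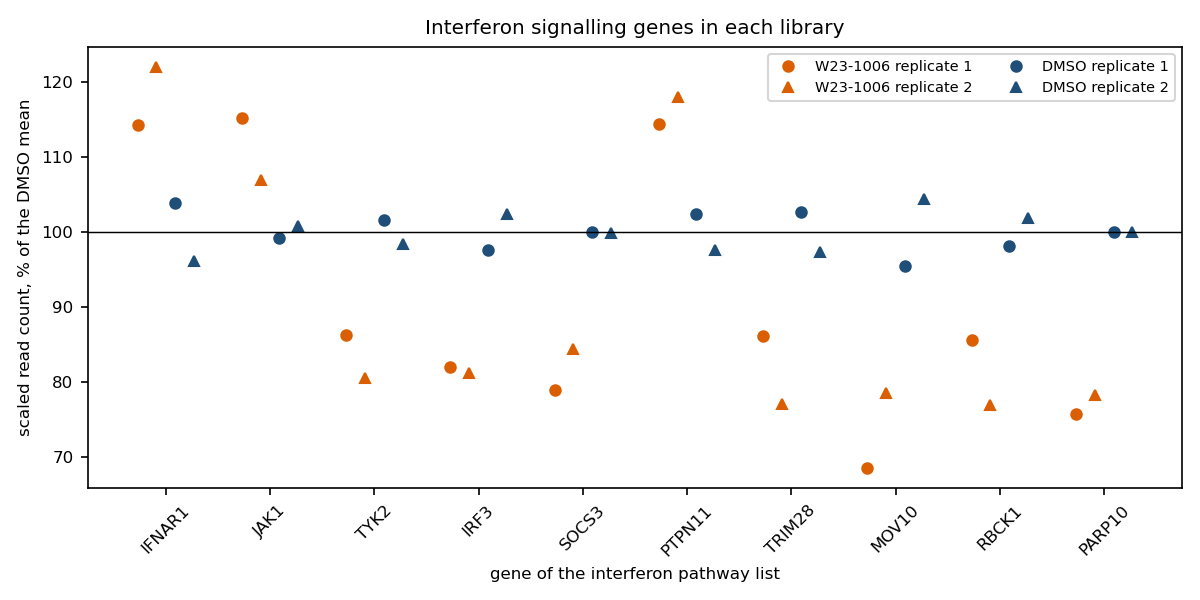
Scaled read count of 10 genes of the interferon pathway list in each library, as a percent of the DMSO mean, with compound points left of DMSO points. PTPN11, TRIM28, MOV10, RBCK1 and PARP10 passed the test as deposited (none after the GC correction). For each gene shown both compound points lie on one side of both DMSO points. Genes that passed were picked by p in these same libraries, a choice that favours such separation. In the tested list as a whole, groups did not overlap for 41 of 82 genes, against 47.1% of all genes.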

How the data were processed

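Per the labels' protocols, RNA of 4 libraries was selected for poly(A) and sequenced. The tools were DESeq2 1.20.0, featureCounts 1.5.0-p3, HISAT2 2.0.5, fastp and CASAVA, on GRCh38, per the submitters' processing notes. The sources used here do not state settings or strand use, so reads of overlapping or antisense genes cannot be told apart. The deposited values are a signal: read counts scaled per library by the authors, 100% of them whole multiples (within 0.001) of the smallest value in their column. No count test was run on these scaled values, and limma on a log scale stands in for a test meant for raw counts. Whether each value divided by the smallest value of its column is the raw read count was not tested. The columns named treatment and control were taken as the compound and DMSO. The authors' log2 fold change, p-value and adjusted p-value, per the file headers, are quoted only beside these tests.

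The 22486 genes whose mean value reached 1 were tested with limma 3.58.1 in R 4.3.3 on log2(value + 1), a scale that understates the change of low genes. The fit had treatment as its only term and a mean-variance trend. Tests were two-sided, with Benjamini-Hochberg adjustment and a threshold of 0.05. The fit was also run on simulated counts with the same spread setting for every gene and no GC effect. That run does not bear on the GC correction. Levels per kb use the gene length in the deposited table. The GC correction subtracted from each library a loess curve (span 0.3) of log2 deviations on the GC content of the longest GENCODE 29 transcript (99.9% of genes), fitted to 12585 genes with a mean log2 of at least 5. The members and lists were chosen with earlier results of these data known. Values per library are given for members that passed and, among the others of each role group, for the most abundant member and the 2 with the smallest p. The same is given for pathway genes that passed, for IFNAR1, IFNAR2, JAK1 and TYK2, and for the 4 next by p. A further gene that the rule names is not reported here. The values of OAS2, IFITM1, BST2 and HERC6, and the fold changes of the genes named beside these, were given to account for every member. The 17 alternatives changed the pseudocount, filter, scaling, model, GC or length correction, block or libraries. Windows of promoters came from RefSeq, GRCh38.p14.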

Additional observations from a re-analysis of the deposited data

How the results depend on the processing

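IFI16 kept its direction under all 17 alternatives (log2 fold change 0.23 to 0.46, adjusted p by limma 0.00445 to 0.578 over those without the block). The number of members called, 1 in the report, was 0 with a pseudocount of 0.1, without a filter, without the mean-variance trend and after the GC correction. It was 2 with a pseudocount of 5, 3 with limma-voom and 5 with a filter of 5 CPM in 2 libraries, where 1475 of 11097 genes were called, against 484 of 22486 in the report. The filter of 5 CPM also put the median log2 fold change of the 37 members it kept at 0.077. Median-of-ratios scaling, trimmed-mean scaling, equal totals and a gene length correction each left 1. Over all genes 770 were called with a pseudocount of 5, 826 with equal totals, 774 with the length correction and 1190 with limma-voom. With 1 library left out, where the lone library is given the spread of the other group, 0 members, 0 genes of the pathway list and 0 genes in all were called by limma whichever library it was. At an unadjusted p under 0.05 there were then 5 to 9 members, 5 to 14 pathway genes and 1904 to 3112 genes in all, and the median of the members was 0.023 to 0.10. For the pathway list, 5 in the report, the count was 0 with a pseudocount of 0.1, without a filter, without the trend and after the GC correction, 9 with limma-voom and 10 with the filter of 5 CPM. At an unadjusted p under 0.05 the settings with 0 members called held 10, 10, 2 and 4 members, 19, 18, 4 and 3 genes of the pathway list, and 3515, 3568, 1866 and 1631 genes in all, in the order named first. At an adjusted p under 0.05 the genes in all were 0 in the first 3 of these settings and 21 after the GC correction. The cause was not tested.

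A hand-picked set of genes was followed through every alternative. Of that set, 4 took the other sign after the GC correction: EIF2AK2 at -0.039, ISG15 at 0.053, LGALS3BP at 0.036 and RBCK1 at 0.00 (0.00027). Genes outside the set also changed sign, such as LY6E (-0.22 as deposited, 0.07 after the correction) and IRF2BP1 (-0.28 and 0.12). Libraries with the same replicate number share only that number, as far as the labels say, with a correlation of replicate differences between groups of 0.0436. With the number as a block, 5 members, 12 pathway genes and 1731 genes in all were called, and with the block and the GC correction together 0 members (7 at an unadjusted p under 0.05), 1 pathway gene (MOV10) and 200 genes in all, with the same 4 signs turned. At 2 libraries a group, and a few reads for BST2, IFITM1 and TRIM22, small differences were not detectable.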

Other observations

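Some further genes of innate immunity outside the 44 are given here, none of which passed the test. MAVS, the mitochondrial adaptor of the RNA sensors, had 4871 and 4892 with the compound, against 5093 and 4725 with DMSO (log2 fold change -0.01, SE 0.06). CGAS, the cytosolic DNA sensor, had 1196 and 1192 with the compound, against 1181 and 1134 with DMSO (0.05, SE 0.07). The groups of MAVS overlapped and those of CGAS did not. TMEM173, or STING, the adaptor of CGAS, had 424 and 425 with the compound, against 382 and 436.5 with DMSO (0.06, SE 0.11). SAMHD1, which depletes nucleotides, had 2319 and 2221 with the compound, against 2314 and 2155 with DMSO (0.02, SE 0.06). For both the groups overlapped. The guanylate-binding proteins GBP1, GBP2 and GBP3 differed by 0.06, -0.02 and 0.00 (SE 0.08 each) on the log2 scale. RSAD2, or viperin, had 15.9 and 11.6 with the compound, against 8.97 and 7.22 with DMSO (0.69, SE 0.55), and its groups did not overlap at these low values. CD274, the PD-L1 gene, had 293 and 401 with the compound, against 319.9 and 234 with DMSO (0.32, SE 0.16), with the second compound library above all others. The choice of these genes followed a look at their values.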
